A study of Rattus norvegicus with 2 samples.

Results

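Liver markers of bile duct and progenitor cells were followed in rats given senecionine, a hepatotoxic pyrrolizidine alkaloid of ragwort-type plants. The group comprises 10 genes, chosen as known ductular and progenitor markers together with the keratins of simple epithelia: Spp1, Tnfrsf12a, Krt7, Krt8, Krt18, Krt19, Epcam, Sox9, Cd24 and Prom1. Of these 10, 8 had an array probe whose RefSeq accession named them, out of 13667 genes named on the array, and Krt7 and Sox9 are not analysed here. The senecionine group was made up of Sprague Dawley rats dosed with 35 mg/kg by the intragastric route, and the control group of Sprague Dawley rats given sodium chloride. Livers of both groups were taken 36 h after dosing. For each group 3 tissue samples were pooled, and each group has 1 one-colour Agilent array, so there is no spread between animals and no test. The design text speaks of 2 independent experiments and names control and exposure beside them, which is read here as the 2 arrays. Age and sex are not given in the sources used here. All 11 hepatocyte markers with a named probe were well above background on both arrays. The control array also carried transcripts known from brain, whose values stand beside Cd24 and Prom1, and with 1 array per group no ratio can be given without it.

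Bile ducts are lined by cholangiocytes, which carry Krt7, Krt19, Epcam and Sox9, while hepatocytes of healthy liver build their keratin filaments from Krt8 and Krt18. After many kinds of liver injury, cells with ductular features multiply around the portal tracts, a change known as the ductular reaction, and some of these cells also carry the progenitor markers Cd24 and Prom1. Tnfrsf12a, also called Fn14, is the receptor of the cytokine TWEAK, which drives growth of progenitor cells in mouse liver, and Spp1 encodes osteopontin, a secreted glycoprotein that binds integrins and the receptor CD44. Macrophages and stellate cells can also express Spp1, and injured hepatocytes can express Tnfrsf12a.

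Every member with a probe was brighter on the senecionine array, relative to the 75th percentile of signal that was used to scale each array. A gene counted as measured when both arrays detected a probe of it well above background, as held for 6 of the 8 members and 57.1% of named genes. In senecionine livers 5 of the 6 measured members were higher by 2-fold or more and none was lower by as much, beside 11.2% higher and 17.7% lower among all 7803 measured genes. Their median log2 ratio, senecionine minus control, was 2.19, against -0.14 for all measured genes. At 1.5-fold the same count was 5 higher and none lower, beside 21% and 31.1% of measured genes. At 4-fold it was 3 higher and none lower, beside 2.73% and 4.63%. The other members, Spp1 and Prom1, reached detection on the senecionine array alone, as did 19.1% of all named genes, while 1.24% did so on the control array alone. With both taken at their lower bounds, the median over 8 members was 2.19. The members were chosen with results of these arrays known, so the counts describe the genes and are no independent evidence. In pooled whole tissue, more cells of a type and more RNA per cell cannot be told apart.

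**Figure D1:**
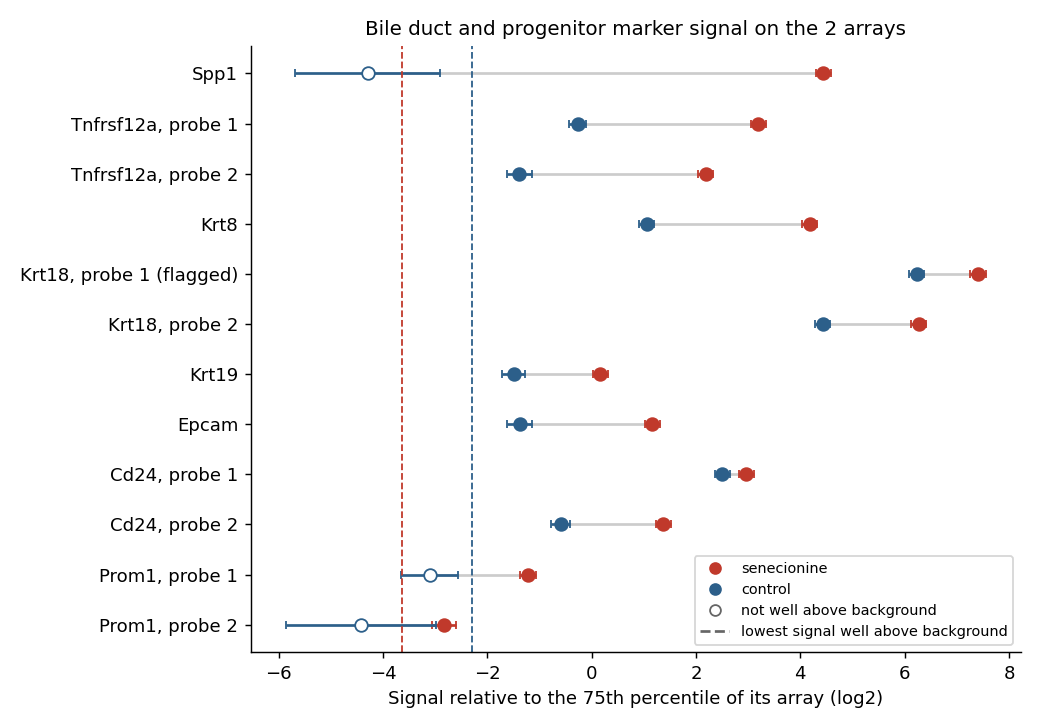
Scaled signal (log2, relative to the 75th percentile of its array) of each probe of the 8 markers, in red for senecionine and blue for control, with Agilent's spot error as the bar. Open points were not well above background, and dashed lines mark the lowest signal well above background on each array. All 12 probes lay further right on the senecionine array.

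The promoters of Spp1 and of the 4 measured members past 2-fold that have a promoter entry are shown here because these genes were higher together. Each stretch covers the 250 bases before the annotated transcription start, in the sense of the gene, from RefSeq on the GRCr8 assembly. The Spp1 stretch lies at chr14:5619805-5620054 on the minus strand, Tnfrsf12a at chr10:13213649-13213898 on the minus strand, Krt8 at chr7:135010340-135010589 on the minus strand, Krt18 at chr7:135035918-135036167 on the plus strand and Epcam at chr6:12649679-12649928 on the minus strand. Capitals mark matches on either strand to the letters of 6 motifs. TGANTCA is bound by AP-1 factors and GGAATG by TEAD factors, the partners of YAP. The motif searched for RBPJ, the Notch effector, was TGGGAA. Core promoter elements were searched as TATAAA and, for the element of nuclear factor Y, as CCAAT. The GC box bound by Sp1 was searched as GGGCGG.
Spp1: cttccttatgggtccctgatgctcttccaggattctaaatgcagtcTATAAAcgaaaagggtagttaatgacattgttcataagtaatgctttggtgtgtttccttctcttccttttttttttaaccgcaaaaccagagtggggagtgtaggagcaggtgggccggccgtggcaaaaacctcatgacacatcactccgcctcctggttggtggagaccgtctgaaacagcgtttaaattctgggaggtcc
Tnfrsf12a: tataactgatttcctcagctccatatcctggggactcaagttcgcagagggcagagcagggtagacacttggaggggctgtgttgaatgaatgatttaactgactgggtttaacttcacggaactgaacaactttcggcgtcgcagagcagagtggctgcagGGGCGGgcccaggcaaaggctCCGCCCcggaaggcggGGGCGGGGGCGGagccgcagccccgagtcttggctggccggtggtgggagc
Krt8: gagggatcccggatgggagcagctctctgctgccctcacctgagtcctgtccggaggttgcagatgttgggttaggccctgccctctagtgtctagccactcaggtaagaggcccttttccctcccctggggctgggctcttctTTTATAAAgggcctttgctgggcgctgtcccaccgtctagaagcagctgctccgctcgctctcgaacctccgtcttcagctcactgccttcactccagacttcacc
Krt18: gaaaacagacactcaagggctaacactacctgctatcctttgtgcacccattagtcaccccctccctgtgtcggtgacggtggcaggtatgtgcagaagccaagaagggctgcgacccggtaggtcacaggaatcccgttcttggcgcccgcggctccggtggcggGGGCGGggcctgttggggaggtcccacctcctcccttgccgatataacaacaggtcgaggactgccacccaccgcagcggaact
Epcam: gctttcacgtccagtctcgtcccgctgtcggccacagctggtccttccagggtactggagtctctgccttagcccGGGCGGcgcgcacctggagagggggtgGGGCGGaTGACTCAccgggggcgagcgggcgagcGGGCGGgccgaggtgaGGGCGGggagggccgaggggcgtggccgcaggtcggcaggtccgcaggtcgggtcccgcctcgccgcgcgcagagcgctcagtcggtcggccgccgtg

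The stretches shared no motif across all 5 genes. Tnfrsf12a and Epcam each held 4 matches to the GC box, which occurs in 30.5% of all 33469 RefSeq promoter stretches of this length, and Krt18 held 1. TATAAA was found in Spp1 at -204 to -199 and in Krt8, where matches on both strands overlap between -106 and -99. It occurs in 12.9% of all promoter stretches. Epcam held an AP-1 match at -141 to -135, a motif present in 6.34% of all stretches. Of the 8 stretches listed for members, 2 held an AP-1 match, the other being in Prom1 at -191 to -185. The GC box was found in 5 of these 8, among them stretches of Prom1 and Cd24. The letters searched for TEAD (12.1% of all stretches) and RBPJ (22.1%) were absent from all 8 stretches listed for members, and CCAAT (34.0%) was found in Prom1 only. Krt7, Krt19 and Sox9 had no promoter entry. G and C made up 75.6% of the Epcam stretch and 46.8% of the Spp1 stretch, with a median of 51.2% over all stretches.

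Spp1, the osteopontin gene, showed the widest gap of the 8 members. Its probe was spotted 10 times on each array. On the senecionine array the 10 spots read from 2713 to 3168 intensity units, with a median of 2889. On the control array the 9 spots without an outlier flag read from 4.36 to 6.19 units, with a median of 4.71. Every senecionine spot was well above background, no control spot was, and the spots of the 2 arrays did not come near each other. The negative control spots of the control array, which have no matching transcript, had a median of 4.54 units and reached 7.76, so Spp1 in control livers could not be told from background. Taken against the lowest signal called well above background on the control array, Spp1 was at least 106-fold higher in senecionine livers, and at least 32.1-fold with normexp background correction. Of the 2610 genes detected on the senecionine array alone, 12.2% reached a bound of 2-fold or more. The SD between repeated spots was 0.068 on the log2 scale on the senecionine array and 0.22 on the control array, which is error of the arrays and not of the animals. In the authors' deposited table Spp1 stood at 11.72 for senecionine and 2.78 for control on a log2 scale.

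**Figure D2:**
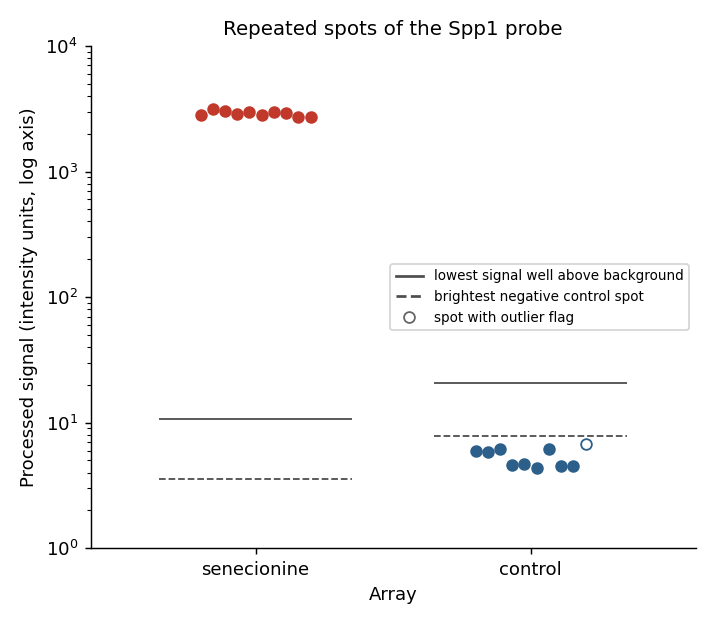
Processed signal (intensity units, log axis) of the 10 repeated spots of the Spp1 probe on the senecionine array (left, red) and the control array (right, blue). Solid lines mark the lowest signal well above background and dashed lines the brightest negative control spot of each array, and the open point is the spot left out for its outlier flag. The senecionine spots lie between 2713 and 3168 units, and all control spots lie under the dashed line at 7.76 units.

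Genes for the receptors of osteopontin and for proteases that cleave it were mostly higher or detected on the senecionine array only. Of 13 with a named probe, 5 were measured, 3 of them higher by 2-fold or more and 1 lower (median log2 ratio 1.02). Another 6 were detected on the senecionine array only, as were 19.1% of all named genes. Cd44, the hyaluronan and osteopontin receptor, was 19.6-fold higher (log2 ratio 4.29 ± 0.21, spot error), and Itgb1, the common beta subunit of many integrins, 4.25-fold higher. Tgm2, the transglutaminase that cross-links osteopontin, lay just past the rule at 2.02-fold higher and fell under it with median scaling, where its list had 2 higher genes. Itgb5 was 2.23-fold lower, but with normexp correction no measured gene of the list was lower by 2-fold. Mmp12, the macrophage elastase, was at least 37.0-fold higher, Mmp9 at least 2.44-fold and Mmp3 at least 2.01-fold, just past the rule. The integrin subunit Itgb3 was detected on the control array only and was at least 3.57-fold lower.

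Tnfrsf12a, the TWEAK receptor, had the highest ratio of the 6 measured members. Its brighter probe read 1227 intensity units on the senecionine array, against 83.7 on the control array. Its second probe read 607 units on the senecionine array, against 38.7 on the control array. After scaling, the probes gave 11.1-fold (log2 ratio 3.47 ± 0.22) and 11.8-fold (3.57 ± 0.28) higher signal, a difference within their spot error. Among the 7803 measured genes 36 had a higher ratio than Tnfrsf12a.

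The ligand and the signalling chain behind Tnfrsf12a differed less between the arrays than the receptor did. Tnfsf12, which encodes TWEAK, had a log2 ratio of -0.02 ± 0.23. TWEAK signalling had 10 genes with a probe, all of them measured, with 2 higher by 2-fold or more and none lower (median 0.37). These were Birc3, an inhibitor of apoptosis and NF-kappaB target (3.59-fold), and the kinase gene Ikbkb (2.64-fold). Nfkb2, the non-canonical NF-kappaB subunit, lay at the limit with a log2 ratio of 1.00, and its second probe was below background on both arrays. Birc2, another inhibitor of apoptosis, had a log2 ratio of 0.87. Map3k14, the kinase of the non-canonical pathway, had a log2 ratio of -0.02 ± 0.24.

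The 3 keratins that could be measured were all higher, Krt8 the most. Krt8, the type II keratin of simple epithelia, read 2428 intensity units on the senecionine array, against 209.8 on the control array. This was 8.73-fold higher after scaling (log2 ratio 3.13 ± 0.21), and 62 measured genes had a higher ratio. Krt18, its type I partner, read 10323 units on the senecionine array, against 2169 on the control array, and was 3.59-fold higher (1.84 ± 0.20). Krt8 and Krt18 pair into 1 filament, and their log2 ratios lay further apart than their spot errors. A second and brighter probe of Krt18 carried an outlier flag on both arrays and was left out. It read 22669 units on the senecionine array, against 7554 on the control array, and gave 2.26-fold higher signal. The size of the Krt18 difference thus depended on the probe, and its direction did not.

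Krt19, the type I keratin that marks bile duct cells among the cells of healthy liver, was dim on both arrays. It read 149.9 units on the senecionine array, against 35.9 on the control array, where signals down to 20.6 units were called well above background. It was 3.15-fold higher (log2 ratio 1.66 ± 0.26), but with normexp background correction its log2 ratio was 0.85, under the 2-fold rule.

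Other keratins were mostly not detected. Of 14 further keratin genes with a probe, which mark skin, hair and other epithelia, 8 were below background on both arrays and 3 were measured, with log2 ratios of -1.04 ± 0.36 (Krt1), -0.77 ± 0.24 (Krt13) and -0.75 ± 0.21 (Krt14). With normexp correction, or with the percentile taken over probes detected on both arrays, none of the 3 was lower by 2-fold. Of the 3 detected on the senecionine array only, Krt20, a keratin of gut and bladder epithelium, was at least 6.37-fold higher. Of 4 measured linkers that tie keratin filaments to desmosomes, the desmosomal cadherin Dsc2 was 5.28-fold and the plakophilin Pkp2 2.14-fold higher (1.68-fold on its second probe), and none was at least 2-fold lower. With median scaling 1 of the 4 was higher. The other linkers, Jup and Pkp3, had log2 ratios of -0.54 and -0.51.

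Epcam, the adhesion glycoprotein of bile duct epithelium, read 299.9 intensity units on the senecionine array, against 38.8 on the control array. It was 5.83-fold higher (log2 ratio 2.54 ± 0.28), and 112 measured genes had a higher ratio. With normexp correction the log2 ratio was 1.68, the lowest of its alternatives.

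**Figure D3:**
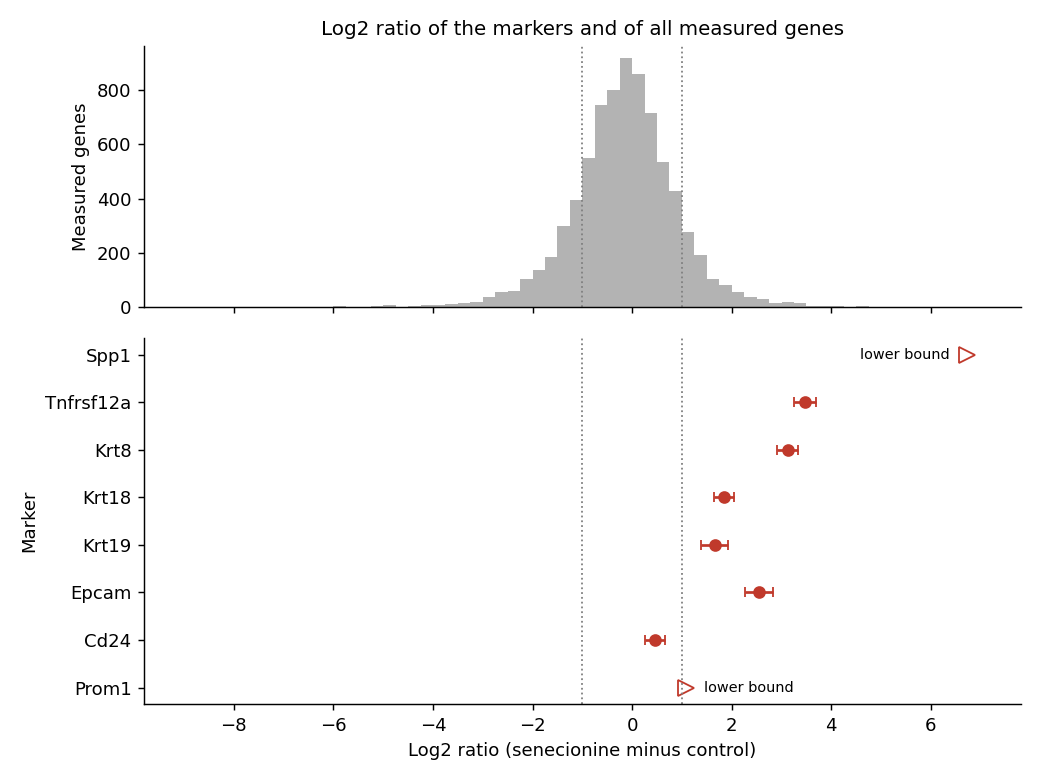
Lower panel, log2 ratio (senecionine minus control) of each marker with its spot error, with open triangles for lower bounds. The upper panel gives the number of all 7803 measured genes per ratio bin of 0.25, and dotted lines mark 2-fold. The measured markers lie between 0.46 and 3.47, to the right of the median of all genes at -0.14.

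Cd24, a small glycoprotein anchored to the membrane of progenitor cells, leukocytes and neurons, was the member whose unflagged probes disagreed. The brighter probe read 1042 units on the senecionine array, against 571 on the control array, a log2 ratio of 0.46 ± 0.20 and within 2-fold. The dimmer probe read 346 units on the senecionine array, against 67.0 on the control array, a log2 ratio of 1.96 ± 0.23. The difference between the probes was larger than their spot errors, and both are annotated to the same transcript. In the authors' deposited table the dimmer probe alone is listed, at a log2 difference of 2.02. Cd24 is also a neural gene, and the control array held transcripts known from brain. Of 9 measured markers of neurons and oligodendrocytes, 7 were at least 2-fold lower on the senecionine array and none higher (median -2.95), with Mbp 86.1-fold, Tubb3 19.99-fold, Cldn11 19.4-fold and Mag 16.6-fold lower. Gap43, Snap25 and Nefm, detected on the control array only, were at least 30.2-fold, 10.9-fold and 4.85-fold lower. The summed scaled signal of this list was 5.80 in senecionine livers and 83.3 in control livers, in multiples of each array's 75th percentile. Tubb3 alone held 2.79 and 55.7 of these sums. The part of these neural genes in the Cd24 result was not tested.

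Prom1, the membrane protein also called CD133 that marks progenitor cells, was detected on the senecionine array alone. Its brighter probe read 57.5 units on the senecionine array, against 11.7 on the control array, where it was not well above background. Its second probe read 18.7 units on the senecionine array, against 4.70 on the control array. Prom1 was at least 2.11-fold higher by the first probe, and the second gave no bound above 1. This bound fell to 1.93 with median scaling, 1.93 with cyclic loess and 1.41 with normexp correction, so a 2-fold difference was not secured at this signal. Astrocyte and neural stem cell markers, of which Prom1 can be one, were at least 2-fold lower in 6 of 7 measured cases (4 with normexp correction), with Gja1, a gap junction gene, 5.49-fold higher. Ntsr2 was 35.9-fold, Slc1a3 5.73-fold and Aqp4 5.64-fold lower. Nes, encoding the stem cell filament nestin, was at least 3.02-fold higher. The summed scaled signal of this list was 55.4 in senecionine livers and 104 in control livers. Fabp7 alone held 38.3 and 87.7 of these sums, and Gja1 14.1 and 2.56, so they do not describe the list as a whole. The part of this list in the Prom1 result was not tested.

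A wider list of bile duct epithelium genes went both ways. It had 16 measured genes, 4 higher by 2-fold or more, 3 lower and 9 in between (median -0.29). Another 8 were seen on the senecionine array only, as were 19.1% of all named genes. The summed scaled signal of the list was 219 in senecionine livers and 146 in control livers. Tm4sf4, 2.63-fold higher, alone held 136 of the senecionine sum and 51.6 of the control sum. The higher sum thus rests on this gene and does not describe the list as a whole. Dmbt1, a scavenger receptor protein made by reactive bile ductules, was 15.8-fold higher (log2 ratio 3.98 ± 0.24). The annexin Anxa4 was 4.13-fold and the cytoskeletal linker Ezr 3.51-fold higher, and the tight junction gene Cldn3 2.72-fold lower. Among genes detected on the senecionine array only, the tetraspanins Tspan8 and Cd9 were at least 10.65-fold and 3.81-fold higher, and Sctr, the secretin receptor of cholangiocytes, at least 2.25-fold. Cdh1, encoding E-cadherin, had a log2 ratio of 0.01 ± 0.20. Cftr, the chloride channel of cholangiocytes, was below background on both arrays. The tight junction gene Cldn4 split by probe. The probe seen on both arrays gave a log2 ratio of 0.34 ± 0.32, and the other, seen only on the senecionine array, gave at least 12.9-fold higher signal.

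Markers of progenitor and oval cells beyond the members were detected in part and went both ways. Of 12 with a probe, 3 were detected on the senecionine array only, 4 on neither array and 5 on both. Of these 5 measured genes 2 were at least 2-fold higher and 1 lower (median 0.42). The higher ones were Cd44, given above, and Lgals3 (7.52-fold), encoding galectin-3, and both genes are also expressed by macrophages. Afp, the fetal serum protein of hepatoblasts and oval cells, was 2.21-fold lower (log2 ratio -1.14 ± 0.20), a call that was lost with normexp correction. Gpc3, a fetal liver glypican, had a log2 ratio of 0.42 ± 0.25. Igf2 was detected on the senecionine array only and was at least 2.91-fold higher. The progenitor or stem cell surface genes Kit, Ncam1, Cd34 and Thy1 were below background on both arrays.

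Pathways that shape the biliary fate showed single genes apart from the rest. Of 12 measured genes of the YAP and TEAD pathway, 3 were higher by 2-fold or more and none lower (median 0.45), against 2 higher and a median of 0.10 with normexp correction. Its targets Ccn2 and Ccn1 were 10.3-fold and 4.24-fold higher, and Ajuba, a LIM protein that restrains the Hippo kinases, 2.19-fold. The other measured genes of this list did not reach 2-fold by the probe used, with Axl at a log2 ratio of -0.63. Ankrd1, detected on the senecionine array only, had a lower bound of 1.04-fold, which does not settle whether it passed 2-fold. Amotl2, also detected there only, had a plain ratio of 1.52-fold (log2 ratio 0.61 ± 0.52). Wwtr1, encoding the YAP paralog TAZ, had a log2 ratio of 0.86, and of 1.19, past the rule, on its second probe. Tead1 was at least 2.29-fold higher by 1 probe, and its second probe gave no bound above 1. Of 5 measured Notch pathway genes 1 was higher and 1 lower (median -0.28), and 2 were lower with median scaling or cyclic loess. Jag1, the Notch ligand of bile duct formation, was detected on the senecionine array only. It was 4.59-fold higher (log2 ratio 2.20 ± 0.41), a plain ratio and not a lower bound. Notch4, known from endothelium, was 2.70-fold higher, a call that was lost with normexp correction, and Hes5, a Notch target of neural tissue, 8.23-fold lower. The target Hey1 and the receptor Notch3 had log2 ratios of -0.95 and -0.28. Hes1, the Notch target of biliary cells, had a log2 ratio of 0.14 ± 0.26.

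**Figure D4:**
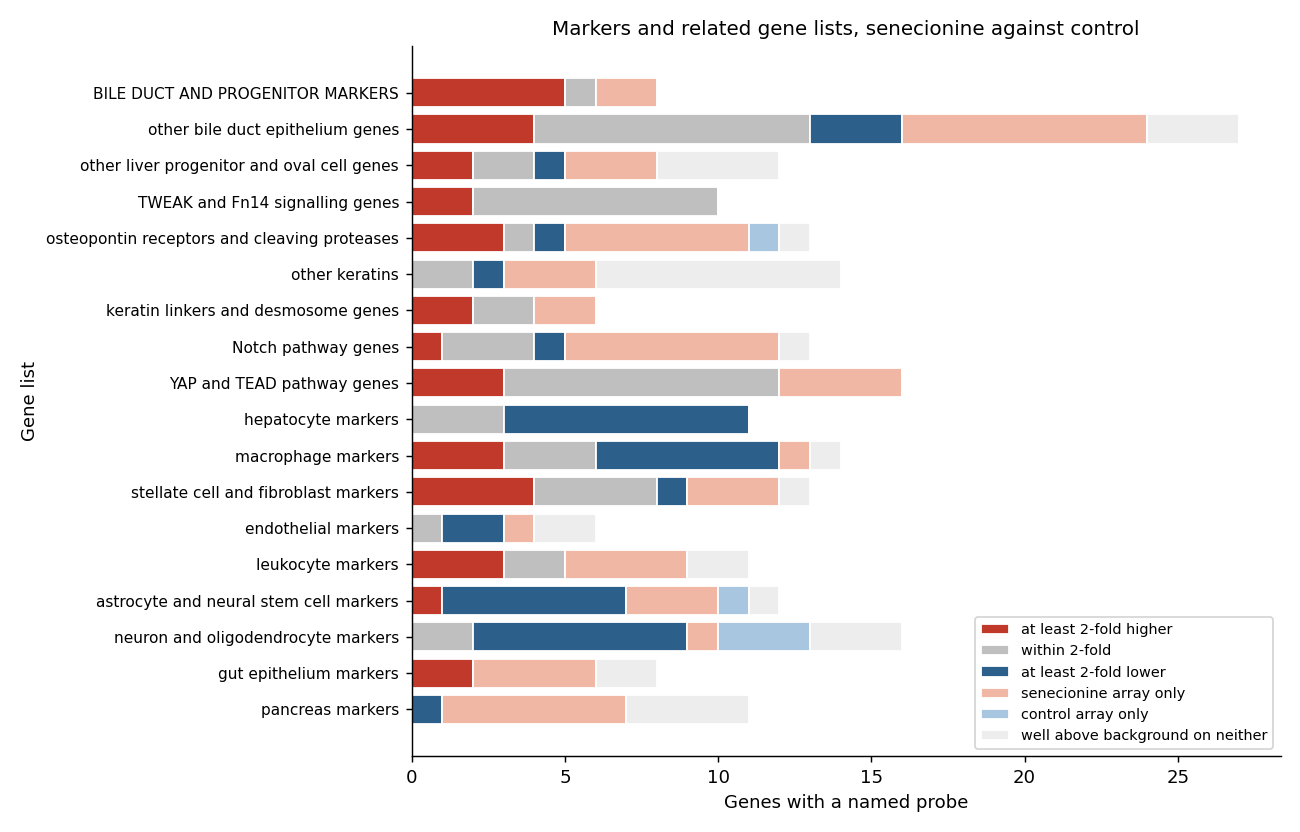
Number of genes with a named probe per list, split by size of the difference between senecionine and control livers and by detection. Of the 8 markers in the top bar, 5 were at least 2-fold higher, 1 was within 2-fold and 2 were detected on the senecionine array only.

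Markers of the other cell types in these pools went in several directions beside the members. Hepatocyte markers, set against Krt8 and Krt18, were at least 2-fold lower in 8 of 11 cases and higher in none (median -1.14), with Apoc3 4.22-fold, Cebpa 3.30-fold and Asgr2 2.89-fold lower. With quantile normalization, cyclic loess or normexp correction 5 of the 11 were lower by 2-fold, with medians from -0.96 to -0.91. Their summed scaled signal was 2393 in senecionine livers and 4190 in control livers. Of 12 measured macrophage markers, set against Spp1, 3 were higher by 2-fold or more and 6 lower (median -0.96), against 2 higher and 5 lower with normexp correction (median -0.62). Their summed scaled signal was 166 in senecionine livers and 314 in control livers. Gpnmb, of lipid-laden and phagocytic macrophages, was 12.6-fold higher. Trem2, detected on the senecionine array only, was 3.37-fold higher by plain ratio (log2 ratio 1.75 ± 0.36). The Kupffer cell lectin Clec4f was 8.98-fold and the complement genes C1qa and C1qb 4.25-fold and 4.05-fold lower. Cd163 was below background on both arrays.

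Stellate cell and fibroblast markers were at least 2-fold higher in 4 and lower in 1 of 9 (median 0.43). Their summed scaled signal was 167 in senecionine livers and 235 in control livers, of which Col3a1 alone held 80.6 and 148. The proteoglycan gene Dcn was higher by 11.8-fold, the actin-binding gene Tagln by 6.94-fold, and the filament genes Vim and Des by 6.20-fold and 5.43-fold. Rgs5, a pericyte gene detected on the senecionine array only, was 4.76-fold higher by plain ratio (log2 ratio 2.25 ± 0.36). Lrat, the retinol-storing enzyme of stellate cells, was 5.02-fold lower, and with median scaling 2 genes of this list were lower. The collagen genes Col3a1, Col1a2 and Col1a1 had log2 ratios of -0.88, -0.63 and -0.17. The second probe of Col1a2 gave -0.10 and that of Col1a1 0.65, so the sign for Col1a1 depended on the probe. Among 5 measured leukocyte markers 3 were higher by 2-fold or more and none was lower (median 1.68, or 0.74 with 2 higher under normexp correction), led by the neutrophil genes S100a9 and S100a8 at 92.2-fold and 77.4-fold. Cd3g was 3.21-fold higher, Cd3d had a log2 ratio of 0.43, and Itgam, Cd8a and Ptprc were at least 4.16-fold, 2.79-fold and 2.68-fold higher. The leukocyte sum was 73.7 in senecionine livers and 4.20 in control livers. S100a8 and S100a9 held 34.1 and 33.0 of the senecionine sum, so it mostly rests on these genes. Among 3 measured endothelial markers 2 were lower and none higher (median -2.04), with Kdr 7.42-fold and Oit3 4.12-fold lower and Lyve1 at a log2 ratio of -0.55.

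Markers of gut and pancreas epithelium, which share keratins and Epcam with bile ducts, were also looked at. Of 8 gut markers 6 were detected on the senecionine array and 2 on the control array, with Fabp2 3.02-fold and Tff3 2.63-fold higher (1.84-fold on the second Tff3 probe) and Cdh17 at least 3.27-fold. With normexp correction 1 of the 2 genes measured on both arrays was higher by 2-fold. Krt20, given above, Vil1 and Guca2a were detected on the senecionine array only, and Cdx2 and Lgals4 on neither array. The lower bounds of Vil1 and Guca2a were 0.75-fold and 1.08-fold, short of a 2-fold call. Of 11 pancreas markers 7 were detected on the senecionine array and 1 on the control array, and no bound of those detected on the senecionine array only reached 2-fold. Among all named genes 19.1% were detected on the senecionine array alone and 1.24% on the control array alone. The gut and pancreas detection counts thus do not by themselves show higher signal. Among the acinar genes, Cela1, Pnlip and Ctrb1 were detected on the senecionine array only, and Prss1, Cela2a, Cpa1 and Amy2a3 on neither array. The 1 measured pancreas gene, Cpb1, was 5.87-fold lower. The part of these cell types in the marker results was not tested.

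Over the 11 processing alternatives, Krt8 and Tnfrsf12a changed least of the 6 measured members. Tnfrsf12a stayed between log2 ratios of 3.06 and 3.62 and Krt8 between 2.999 and 3.33. Krt18 ranged from 1.18, by its flagged probe, to 2.21, and Krt19 from 0.85 to 1.75. Cd24 ranged from 0.33 to 2.02, the widest spread of the 6. In the authors' deposited table, which lists probes past 2-fold, the log2 difference was 3.62 and 3.69 for the Tnfrsf12a probes, 3.33 for Krt8, 2.63 for Epcam, 2.21 for Krt18 and 1.73 for Krt19. Prom1 stood at 5.87 for senecionine and 4.04 for control in the authors' deposited table.

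**Figure D5:**
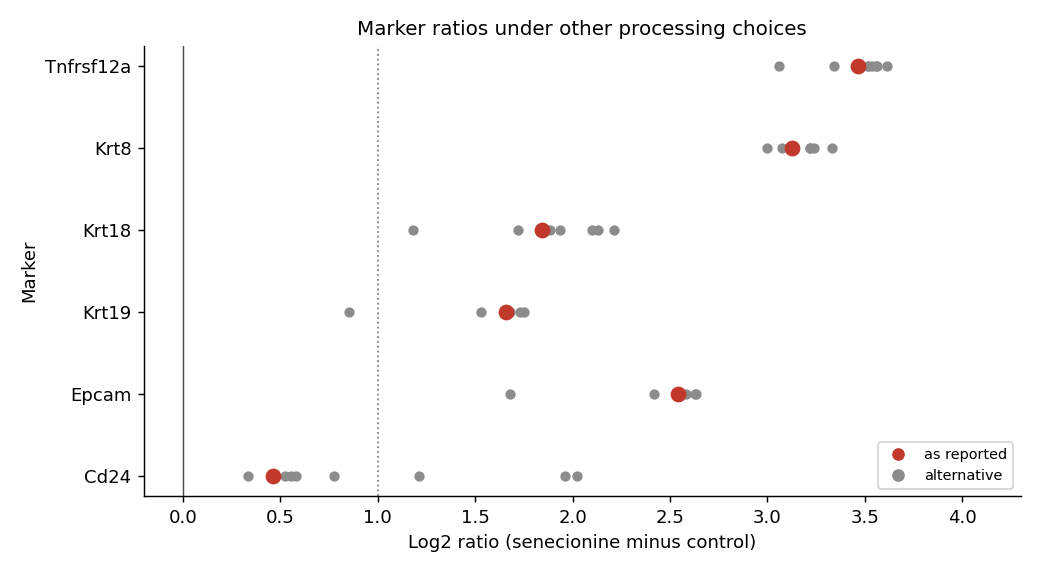
Log2 ratio (senecionine minus control) of the 6 measured markers as reported (red) and under each of 11 alternatives (grey), with the dotted line at 2-fold. Krt8 stays between 2.999 and 3.33, while Cd24 runs from 0.33 to 2.02.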

How the data were processed

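Liver RNA pools were measured on 2 one-colour Agilent arrays, 1 per group, grouped by sample title. The authors made the deposited intensity values with Agilent Feature Extraction 10.7.3.1, which subtracted background and removed trends within each array, per the file headers. No scaling between arrays was done in these files. The authors' deposited log2 table holds 7404 probes, none differing by less than 1.00, so the authors kept probes past 2-fold. How it was scaled is not stated in the sources used here. Its columns have medians of 6.10 for senecionine and 6.03 for control, and all 7355 probes compared here had the same direction as the scanner signals.

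From the processed signal, log2 was taken, the 75th percentile of each array (134 units for senecionine, 101 for control) was subtracted, control spots and outlier-flagged spots (497 and 522) were left out, and spots of 1 probe were averaged. This left 40516 probes, of which 17250 matched RefSeq transcripts of GRCr8. The array was designed on another build. The brightest probe well above background on both arrays stood for a gene. On the senecionine array 64.1% of spots were well above background, and 44.4% on the control array. Genes detected on 1 array only got a bound, the bright signal over the dim one, which was raised to the detection limit of its array where lower. Where the dim signal already lay above that limit, as for Jag1, Rgs5, Trem2 and Amotl2, the value is a plain ratio. Left out there were 8 genes whose probes were each above background on a different array. Without replicates no test was made. Differences were judged by a fold of 2, and errors are Agilent's spot errors, which leave out animals and labelling. The number of arrays limits precision.

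The members and 17 further lists were chosen with earlier results of these data known. Named are all members and, per list, up to 4 genes with the largest absolute ratio and those with bounds past 2-fold. Other genes named for their role, or as below background, were chosen after their values were seen. Some genes this rule names are not reported here. Alternatives were other scalings, normexp (offset 50, on median spot signals), detection filters, probe rules, kept outliers, other fold thresholds and the authors' values. Counting was tested on simulated data. Scaling alternatives were run in limma 3.58.1 on R 4.3.3, and all else in Python 3.11.15 with pandas 2.3.3, numpy 2.4.6 and matplotlib 3.10.9.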

Additional observations from a re-analysis of the deposited data

Results flagged for a closer look

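A probe of Krt18 outside the comparison carried strong signal. It was left out because its spot had an outlier flag on both arrays, and its log2 ratio, senecionine minus control, was 1.18, against 1.84 for the probe that was used. Both arrays detected it well above background.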

How the results depend on the processing

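No paired analysis was possible because each group has 1 array. No alternative reversed the direction of a member, and none put a member at least 2-fold lower. The count of members at least 2-fold higher was 5 of 6 as reported, 3 at a threshold of 4-fold and 8 of 8 with the authors' values, a table selected at 2-fold that includes Spp1 and Prom1. Over the other alternatives it ran from 4, with normexp correction, to 7 of 8 when detection on 1 array or none was enough. Among all genes, 876 of 7803 were at least 2-fold higher as reported and 615 of 7803 with normexp correction. When detection on 1 array was enough it was 2389 of 10590 genes, and without a detection filter 2394 of 13667. The members' median log2 ratio of 2.19 was 1.78 with normexp correction and 2.42 with the authors' values. Median scaling moved the median of all measured genes from -0.14 to -0.26, and the members' median to 2.07. Cd24 passed 2-fold by the mean of its probes (log2 ratio 1.21) or its dimmer probe (1.96), and Krt18 was 1.18 with flagged spots kept. The bounds of Spp1 and Prom1 under other scalings were added after seeing the data, and that of Spp1 was 32.1-fold with normexp correction and 97.2-fold to 113-fold with the others. Bounds of genes outside the members are given under the main scaling only, so those near 2-fold, as for Mmp3, Sctr and Tead1, are not secured. Normexp correction also gave log2 ratios of 3.06 for Tnfrsf12a, 1.68 for Epcam, 0.85 for Krt19 and 0.77 for Cd24, and the cause was not tested. Depth of signal limited Spp1 and Prom1, which were not well above background in control livers and have bounds only. Some effects on the other gene lists stand beside their counts, and others do not. Bile duct epithelium genes had 4 lower with cyclic loess and 2 with normexp correction (median -0.05). TWEAK signalling genes had 3 higher with cyclic loess. With median scaling, macrophage markers had 2 higher, and neuron and oligodendrocyte markers 8 lower. Further small shifts are not listed.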
